A study of Homo sapiens with 32 samples.

Results

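Promoter accessibility of 30 genes of homologous recombination and the Fanconi anaemia pathway was measured by ATAC-seq, an assay of open DNA that relies on cutting by the Tn5 transposase, in cells of the human embryonic kidney line HEK293T treated with a degrader of the tagged zinc finger transcription factor ZNF143. The members were the counted windows whose centre lay within 500 bp of a GENCODE hg38 transcript start of a listed gene. There were 76 such windows of 212358 in the table, all of equal length, and every gene had between 1 and 7 of them. All 76 passed the filter on low counts. Of the member windows, 29 overlapped another and so shared counts with it.

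All libraries came from 1 clone, labelled HEK_CloneZD29, whose ZNF143 is fused to a tag for induced degradation. The 8 control libraries, replicates 9 to 16, were labelled DMSO, although the treatment text speaks of untreated cells. The 8 dTAGV-1 libraries, also replicates 9 to 16, had been exposed for 30 minutes to dTAGV-1 at 50 nM. This compound bridges the tag to a ubiquitin ligase. Both groups carry the tag, ZNF143 protein was not analysed here, and nothing in the labels says that replicates were separate cultures, so that p-values measure the spread between these libraries. Replicates 1 to 8 of both treatments enter only through a list of 259926 peak summits with no value per library.

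Homologous recombination repairs double-strand breaks and collapsed replication forks by copying an intact sister chromatid. Break ends are resected, BRCA1, PALB2 and BRCA2 prepare the single strand for the search for its partner, and the joint molecules are then resolved. The Fanconi proteins recognise cross-links between DNA strands, mark the FANCD2 and FANCI clamp with ubiquitin, and hand the lesion to nucleases and to recombination. ZNF143 is a DNA-binding activator found at many promoters of housekeeping genes, and many of the genes described here are active in dividing cells.

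The sequences that the results turn on are shown first, from hg38 and on the strand of the gene. The first is the part of the RAD52 window that lies upstream of all RAD52 starts in that window, at chr12:949695-949866 on the minus strand, because this was the only member window called as changed. Capitals mark its bases that lie in no other counted window. The second is the part of the FANCG window upstream of its starts, at chr9:35080005-35080279 on the minus strand, and the third is a stretch of 30 bases at a FANCC start, at chr9:95317693-95317722 on the minus strand. In these capitals mark the core sequence bound by ZNF143, which is CCCA, any base, and then AATGC or CATGC, and these were the only 2 member windows that held it.
RAD52: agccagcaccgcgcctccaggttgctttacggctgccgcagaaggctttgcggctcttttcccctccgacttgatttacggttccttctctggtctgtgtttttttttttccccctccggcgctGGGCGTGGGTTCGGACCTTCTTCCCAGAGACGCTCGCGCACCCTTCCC
FANCG: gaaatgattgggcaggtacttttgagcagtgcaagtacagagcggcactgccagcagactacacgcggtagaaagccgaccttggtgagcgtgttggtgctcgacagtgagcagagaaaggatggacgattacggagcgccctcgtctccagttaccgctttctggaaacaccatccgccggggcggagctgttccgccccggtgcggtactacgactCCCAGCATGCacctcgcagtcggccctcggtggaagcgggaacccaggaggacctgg
FANCC: ctagccaggcCCCAGAATGCactgctgaca

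Library totals ran from 2275856 to 13671039 counts. Control replicate 12 and dTAGV-1 replicates 11 and 12 stood apart by a flatter signal. The strongest windows, the top decile by signal, took 31% of the counts in control replicate 12, 40.3% and 37.8% in dTAGV-1 replicates 11 and 12, and 44% to 47.3% in the other 13 libraries. Values without single libraries, or without replicates 11 and 12 of both groups, are given beside the results below and in the closing section. Leaving out both replicates of both groups also removes control replicate 11, which at 44% was not among the flat libraries. No fit left out the 3 flat libraries alone. Of 6 genes taken as markers of the HEK293T line, 5 had a tested window at a start, between 3.01 and 4.05 log2 CPM in control, and LHX1 had none. Of 9 markers of blood, liver, muscle and epithelium, 2 had one, among them MYOD1.

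Exposure to dTAGV-1 was followed by a loss of accessibility at the main start of RAD52 and by no other called change among the 76 windows. RAD52 anneals complementary single strands and has functions that overlap with those of BRCA2. In edgeR (quasi-likelihood test, Benjamini-Hochberg adjustment over all 185040 tested windows) 1 of the 76 windows was called lower at an adjusted p of 0.05, which is 1.32%, and 0 were called higher. Over all tested windows 0.213% were called lower and 0.00108% higher, and over the 38119 tested windows at any transcript start 0.561% were called lower. With 1 window called, the members' share cannot be set apart from that of promoters in general. At an unadjusted p below 0.05 there were 2 member windows, both lower, or 2.63%, against 2.85% of all tested windows. The other was the FANCG window with the core.

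The fold changes of the members centred near 0. The median log2 fold change was -0.034 over the 76 windows, 0.0077 over all tested windows and 0.011 over promoter windows. Negative fold changes made up 47 of the 76, or 61.8%, against 48.2% of all tested windows and 46.1% of promoter windows. These shares are a description, since many windows share a promoter. In 0 of the 76 windows were the groups fully separated, with all 8 dTAGV-1 libraries on one side of all 8 control libraries. That arrangement was found in 0.0746% of all tested windows.

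Each gene was then represented by its lead window, the member window with the highest mean over all 16 libraries. The lead windows were centred close to a start of their gene, 26 of the 30 within 100 bp. By the annotation at the centre, 15 lead windows were intergenic, 7 lay in an untranslated region, 5 in an intron and 3 in a noncoding exon. In 14 of them another annotated gene also started within 500 bp, such as NBR2 beside BRCA1, ZAR1L beside BRCA2, DCTN5 beside PALB2 and ZFYVE21 beside XRCC3, so that the accessibility of the 2 genes cannot be told apart.

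**Figure D1:**
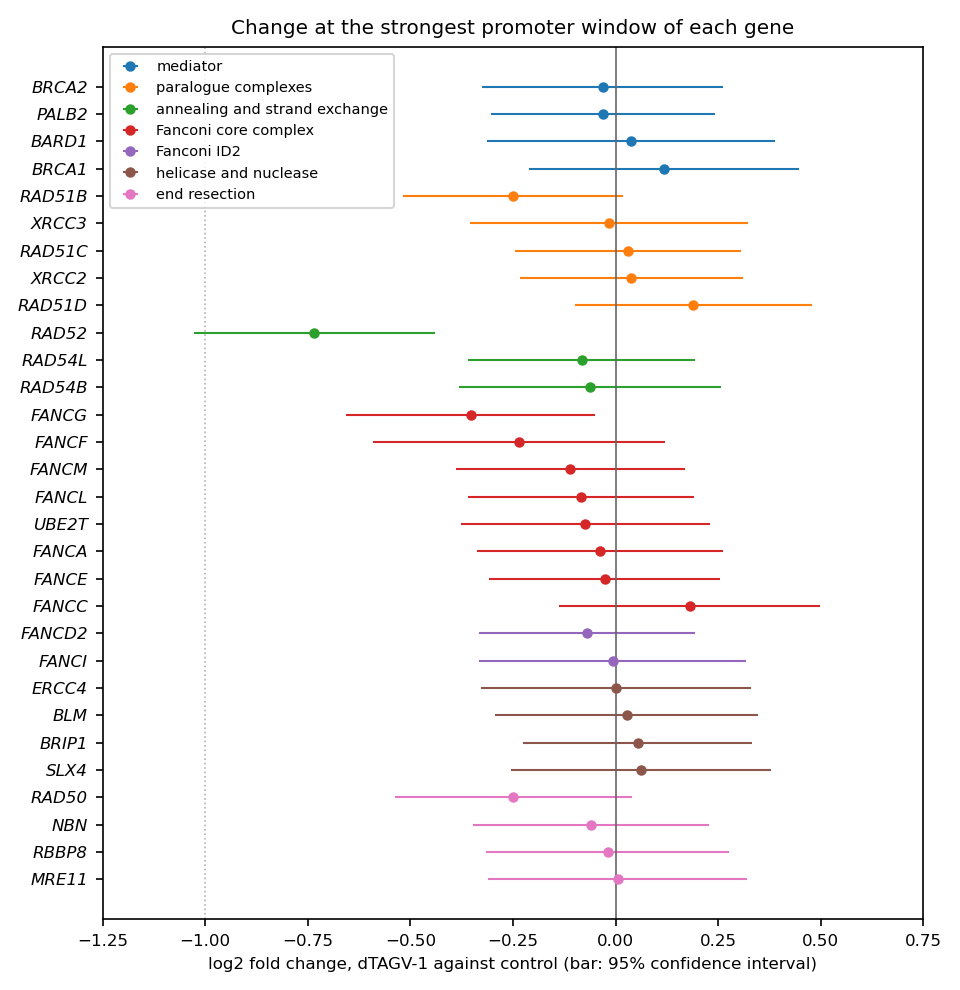
Log2 fold change of dTAGV-1 against control (x axis) at the lead window of each of the 30 genes (y axis), coloured by role; points are edgeR estimates and bars 95% confidence intervals, with a dotted line at -1. RAD52 stands at -0.73 with an interval from -1.03 to -0.44, and the other 29 genes lie between -0.35 and 0.19.

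The called RAD52 window lay on chromosome 12 from 949466 to 949866, with its centre 1 bp upstream of a RAD52 start at a position annotated as untranslated region. Its control libraries had a lowest value of 3.82, a median of 4.88 and a highest of 4.97 log2 CPM, which is the count scaled to the library total. The dTAGV-1 libraries had a lowest value of 3.65, a median of 4.10 and a highest of 4.48. Of the 8 control libraries, 7 lay between 4.82 and 4.97, above every dTAGV-1 library, and only control replicate 12, one of the flat libraries, fell into the range of the dTAGV-1 group. Raw counts were 37 to 334 per control library and 58 to 241 per dTAGV-1 library.

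At this window accessibility fell from 4.75 ± 0.38 to 4.07 ± 0.27 log2 CPM (SD, n = 8 in each group). The fit gave -0.73 ± 0.15 (SE) as log2 fold change (edgeR adjusted p = 0.00497). Thus 60.1% of the control signal was left, with a 95% confidence interval from 49.0% to 73.7%. Without control replicate 12 the log2 fold change was -0.82 (edgeR adjusted p = 1.57e-06), and without replicates 11 and 12 of both groups it was -0.88 (edgeR adjusted p = 9.08e-12). Over 23 alternative fits it stayed between -0.88 and -0.68, with adjusted p values from 9.08e-12 to 0.0346. Among the 214 promoter windows called lower the median log2 fold change was -0.81, and 141 of them fell by more than RAD52.

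RAD52 had 3 further member windows. The next window upstream, from 949743 to 950143 and sharing 124 bp with the called one, had control values with a lowest of 4.06, a median of 4.55 and a highest of 4.70 log2 CPM. Its dTAGV-1 values had a lowest of 3.94, a median of 4.21 and a highest of 4.71. The groups overlapped only through 2 of the flat libraries, control replicate 12 at 4.06 and dTAGV-1 replicate 11 at 4.71. The remaining control libraries lay at 4.42 or above and the remaining dTAGV-1 libraries at 4.41 or below. With all libraries the log2 fold change was -0.24 ± 0.13 (SE), with an edgeR p of 0.0757. The remaining windows lay at an upstream start that RAD52 shares with ERC1, from 989823 on. Their log2 fold changes were -0.074 ± 0.18 and 0.066 ± 0.15 (SE).

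The difference between the 2 overlapping RAD52 windows was also taken in each library. It was chosen after their values were seen and is given without a test. The called window minus its upstream neighbour averaged 0.24 ± 0.21 over the control libraries and -0.21 ± 0.20 over the dTAGV-1 libraries (SD, n = 8), a change of -0.45 on the log2 scale. In control the differences ran from -0.25 to 0.39 and in dTAGV-1 from -0.58 to 0.075, and control replicate 12 was the only control library within the dTAGV-1 range. Without that library the change was -0.52. The capital letters of the RAD52 sequence, 48 bases long, are the upstream bases that are in the called window and not in its neighbour. The called window also has bases downstream of its starts that are not in the neighbour and are not shown. Counts per window do not place the change within it. The called RAD52 window held no ZNF143 core, also when 1 mismatch was allowed. Among all 214 promoter windows called lower, 175 lacked the exact core, or 81.8%, and 80 lacked it with 1 mismatch allowed.

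**Figure D2:**
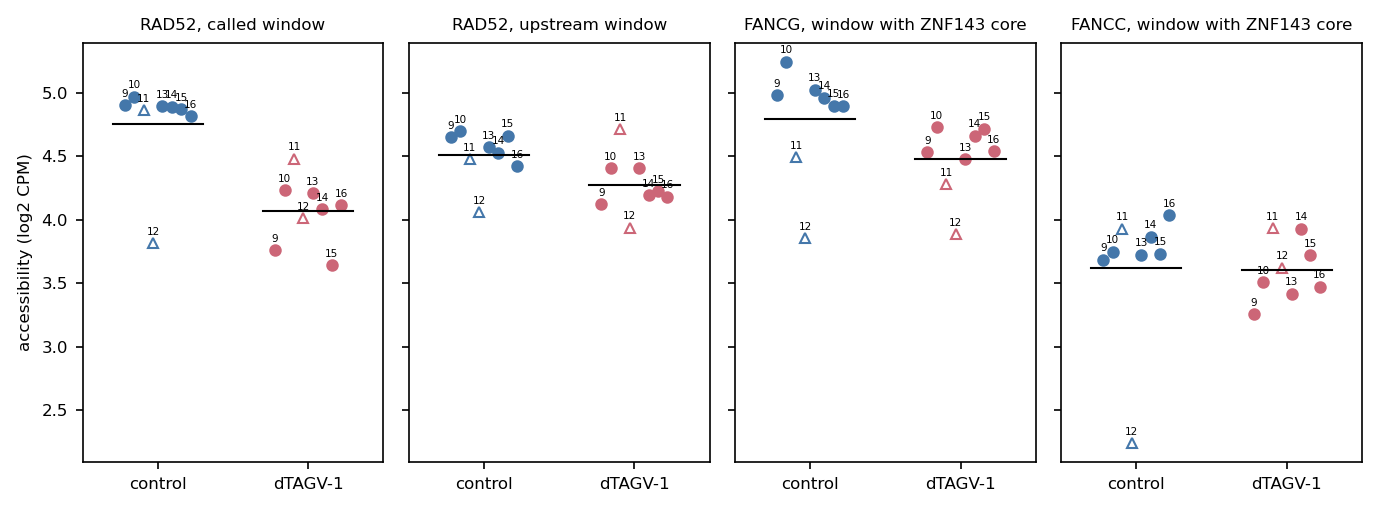
Log2 CPM (y axis) of each library, labelled with its replicate number, in control and dTAGV-1 at 4 windows; black lines are group means and open triangles are replicates 11 and 12. At the called RAD52 window all control libraries but replicate 12 lie at 4.82 or above and all dTAGV-1 libraries at 4.48 or below, while the groups overlap at the other 3 windows.

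The 2 windows with the ZNF143 core belonged to the Fanconi core complex, the ubiquitin ligase assembly that acts on FANCD2 and FANCI. FANCG is a scaffold subunit that binds FANCA. Its window, on chromosome 9 from 35079879 to 35080279, was intergenic at its centre, and the core lay 48 bp upstream of the most upstream FANCG start in the window. Control values had a lowest of 3.85, a median of 4.93 and a highest of 5.25 log2 CPM. The dTAGV-1 values had a lowest of 3.89, a median of 4.54 and a highest of 4.73. The groups overlapped only through control replicates 11 and 12, at 4.49 and 3.85, since the other 6 control libraries lay at 4.89 or above.

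FANCG thus had a log2 fold change of -0.35 ± 0.15 (SE), with a 95% confidence interval from -0.66 to -0.05. Its edgeR p of 0.0233 did not pass adjustment over all windows (adjusted p = 1.0). Without control replicate 12 alone it was -0.43 and was not called (edgeR adjusted p = 0.122). Without replicates 11 and 12 of both groups it was -0.40 and was called (edgeR adjusted p = 0.00194). That fit also leaves out control replicate 11, which is not one of the flat libraries and lay within the dTAGV-1 range. The overlapping FANCG window on the gene side had a log2 fold change of 0.033 ± 0.15 (SE). The part of the flat libraries in these values was not tested further.

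FANCC, a core complex subunit that pairs with FANCE, held the core in a window on chromosome 9 from 95317576 to 95317976, just inside the transcribed region of 1 of its starts. Control values had a lowest of 2.24, a median of 3.74 and a highest of 4.04 log2 CPM, and dTAGV-1 values had a lowest of 3.26, a median of 3.57 and a highest of 3.94. The lowest control value was replicate 12, and the next control library lay at 3.69. The groups thus overlapped also without that library, although 3.69 is above the dTAGV-1 median. The log2 fold change was -0.12 ± 0.15 (SE), with a 95% confidence interval from -0.42 to 0.18. Without control replicate 12 it was -0.21, and without replicates 11 and 12 of both groups -0.23. The overlapping lead window of FANCC had a log2 fold change of 0.18 ± 0.16 (SE). It was 0.09 without control replicate 12, 0.26 without dTAGV-1 replicate 12 and 0.18 without replicates 11 and 12 of both groups. For comparison, 520 tested promoter windows held the core, 39 of them were called lower, or 7.5%, and their median log2 fold change was -0.078.

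Among the mediators of recombination, none of 12 windows was called. BRCA1 and BARD1 form a ubiquitin ligase at breaks, PALB2 joins BRCA1 to BRCA2, and BRCA2 acts on the resected single strand. The lead window of BRCA1 had control values with a lowest of 2.95, a median of 4.81 and a highest of 5.10 log2 CPM and dTAGV-1 values with a lowest of 4.54, a median of 4.85 and a highest of 4.98. The low control value was replicate 12, and the groups otherwise shared 1 range, with a log2 fold change of 0.12 ± 0.16 (SE). Without control replicate 12 it was 0.0034 ± 0.12, and without replicates 11 and 12 of both groups 0.0079 ± 0.093 (SE). For BRCA2 the control values had a lowest of 3.08, a median of 4.44 and a highest of 4.59, and the dTAGV-1 values had a lowest of 3.80, a median of 4.38 and a highest of 4.56. Its log2 fold change was -0.031 ± 0.15 (SE), with a 95% confidence interval from -0.32 to 0.26. PALB2 measured a lowest of 3.85, a median of 4.51 and a highest of 4.76 in control, and 4.23, 4.48 and 4.64 in dTAGV-1. Its log2 fold change was likewise -0.031, with a standard error of 0.14. In these 3 genes the medians of the groups differed by less than the SD of either group, and the lead window of BARD1 had a log2 fold change of 0.038 ± 0.17 (SE).

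RAD51B, RAD51C, RAD51D, XRCC2 and XRCC3 are paralogues of one another that act together in complexes during recombination. None of their 9 windows was called, and their lead windows had log2 fold changes from -0.25 to 0.19. RAD51B had control values with a lowest of 3.42, a median of 3.96 and a highest of 4.37 log2 CPM, and dTAGV-1 values with a lowest of 3.26, a median of 3.77 and a highest of 3.87. Its log2 fold change was -0.25 ± 0.13 (SE), with a 95% confidence interval from -0.52 to 0.02. RAD51D lay at the other end, with a lowest of 3.14, a median of 4.17 and a highest of 4.55 in control and 3.89, 4.31 and 4.66 in dTAGV-1. Its log2 fold change was 0.19 ± 0.14 (SE), with a 95% confidence interval from -0.10 to 0.48. Without control replicate 12 the value of RAD51D was 0.12, and without replicates 11 and 12 of both groups that of RAD51B was -0.16. In both genes the groups overlapped, although all 8 dTAGV-1 libraries of RAD51B lay below its control median. RAD51C, at 3.78 ± 0.39 without and 3.87 ± 0.16 with dTAGV-1 (SD, n = 8), was among the 3 weakest lead windows in control and had a log2 fold change of 0.03.

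RAD54L and RAD54B, motor proteins that act during strand exchange, had lead windows with log2 fold changes of -0.083 ± 0.14 and -0.063 ± 0.16 (SE). With RAD52 they made up the group in which 11 of 13 windows had a negative fold change, and RAD52 held the only call.

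In the Fanconi core complex and its conjugating enzyme UBE2T, 0 of 21 windows were called and 16 had a negative fold change. FANCF, an adaptor subunit, had the weakest lead window of all 30 genes. It measured a lowest of 1.87, a median of 2.82 and a highest of 3.38 log2 CPM in control and 1.44, 2.69 and 2.96 in dTAGV-1. The log2 fold change of FANCF was -0.24 ± 0.18 (SE; 95% confidence interval from -0.59 to 0.12). It was -0.15 without dTAGV-1 replicate 11, -0.33 without control replicate 11 and -0.20 without replicates 11 and 12 of both groups. The lead windows of FANCM, the DNA translocase of the pathway, FANCL, its ubiquitin ligase subunit, UBE2T, FANCA and FANCE had log2 fold changes from -0.11 to -0.026. FANCD2 and FANCI, the clamp that receives ubiquitin, had -0.069 ± 0.13 and -0.007 ± 0.16 (SE) at their lead windows.

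The helicases and nucleases showed the smallest range. BLM, the RecQ helicase of Bloom syndrome, BRIP1, a helicase that binds BRCA1, SLX4, a nuclease scaffold, and ERCC4, the catalytic subunit of an incision nuclease, had lead log2 fold changes from 0.0016 to 0.061. BLM measured a lowest of 5.11, a median of 6.16 and a highest of 6.29 log2 CPM in control and 5.49, 6.13 and 6.43 in dTAGV-1. ERCC4 measured a lowest of 4.82, a median of 6.10 and a highest of 6.25 in control and 5.53, 6.03 and 6.43 in dTAGV-1. SLX4 was the second weakest lead window, with a lowest of 1.69, a median of 3.82 and a highest of 3.98 in control and 2.99, 3.85 and 3.96 in dTAGV-1. In all 3 genes the lowest library was control replicate 12, and the medians differed by less than the SD of either group.

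Among the genes of end resection, MRE11, RAD50 and NBN form the complex that senses break ends, and RBBP8 stimulates its nuclease. None of their 10 windows was called. RAD50 had the lowest value, with a log2 fold change of -0.25 ± 0.14 (SE; 95% confidence interval from -0.54 to 0.04), from 5.05 ± 0.31 to 4.81 ± 0.27 log2 CPM (SD, n = 8). MRE11, NBN and RBBP8 lay between -0.060 and 0.005 at their lead windows.

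The libraries set limits on what could have been missed at the 29 genes other than RAD52. Standard errors of their lead windows ran from 0.13 to 0.18. The lowest 95% confidence bound was -0.66, at FANCG, so that each of the 29 intervals excluded a loss as large as a log2 fold change of -1, and 25 of them also excluded one of -0.5. The highest upper bound was 0.50, at FANCC.

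**Figure D3:**
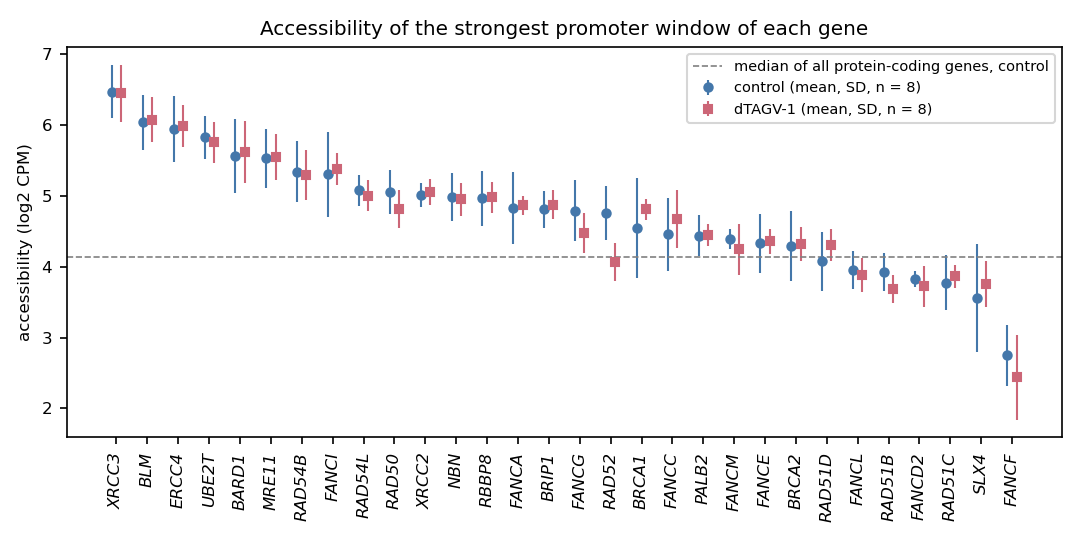
Accessibility in log2 CPM (y axis) of the lead window of each gene (x axis), ordered by the control mean; circles are control and squares dTAGV-1 means with SD over 8 libraries, and the dashed line is the median of 14689 protein-coding genes in control. The levels fall from 6.47 at XRCC3 to 2.75 at FANCF, and the dTAGV-1 mean stands well below the control mean only at RAD52.

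Windows have 1 length, so their levels can be compared with each other. The median control level of the 30 lead windows was 4.80 log2 CPM, with quartiles of 4.31 and 5.25. Over the lead windows of 14689 protein-coding genes the median was 4.14, and 23 of the 30 genes lay above it. XRCC3 was the strongest, with a lowest of 5.60, a median of 6.61 and a highest of 6.76 log2 CPM in control and 5.70, 6.64 and 6.86 in dTAGV-1, and its control mean exceeded 99.1% of protein-coding genes. BLM and ERCC4 followed at 6.04 ± 0.39 and 5.95 ± 0.47 (SD, n = 8), which overlap within their spread. FANCF, at 2.75 ± 0.43, exceeded 17.5% of protein-coding genes. Neighbours in the order of control means differed by less than the larger of their SDs, except XRCC3 against BLM and SLX4, at 3.56 ± 0.76, against FANCF.

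Every lead window held at least 1 summit from the list of replicates 1 to 8, 30 of 30, and so did 69 of the 76 member windows, or 90.8%, against 73.2% of tested promoter windows. The called RAD52 window held 1. The summit list gives no comparison of treatments.

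The other genes of the pathway were taken from lists chosen with earlier results of these data known. Of 44 further genes of recombination and cross-link repair, among them the subunits of RPA, all had a window, and 101 windows were tested. None was called in either direction, and 1 had an unadjusted p below 0.05. Their median log2 fold change was -0.002. Of 17 genes of damage signalling, 34 windows were tested and 0 were called, with a median of -0.022. Of 10 genes of end joining without a template, 18 windows were tested and 0 were called, with a median of 0.032 and a range from -0.15 to 0.17.

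SHLD3, named here after its values were seen, had a window that missed the threshold and was called in some alternative fits. SHLD3 belongs to the shieldin complex, which limits resection. Its window on chromosome 5 from 65624477 to 65624877, shared with starts of TRAPPC13 and TRIM23, held the exact ZNF143 core. It had a lowest of 3.26, a median of 4.22 and a highest of 4.54 in control and 3.31, 3.83 and 3.90 in dTAGV-1. This is a log2 fold change of -0.44 ± 0.14 (SE; edgeR adjusted p = 0.71), and without control replicate 12 it was -0.51 (edgeR adjusted p = 0.0166).

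**Figure D4:**
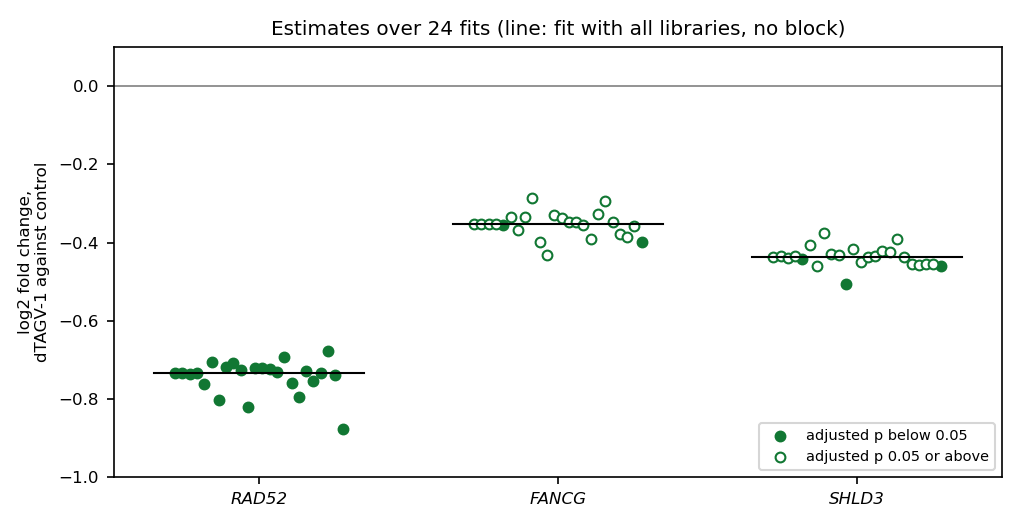
Log2 fold change of dTAGV-1 against control (y axis) at the windows of RAD52, FANCG and SHLD3 (x axis) in 24 fits; filled points have an adjusted p below 0.05, and black lines mark the fit to all libraries without a block. RAD52 is below the threshold in all 24, FANCG in 2 and SHLD3 in 3, and no estimate changes sign.

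Beyond the starts, 334 tested windows lay in the bodies of the 30 genes or within 10000 bp of them, a search added after the data were seen. Of these 2 were called lower, or 0.599%, against 0.213% of all tested windows. The first was the RAD52 window described above. The second lay at the start of PPP1R12B, a myosin phosphatase subunit, at 6648 bp from UBE2T, and it held the ZNF143 core. Its level fell to 5.20 ± 0.18 log2 CPM from 5.89 ± 0.45 in control (SD, n = 8), or by 0.74 on the log2 scale in the fit (edgeR adjusted p = 0.00916). The lead window of UBE2T itself had a log2 fold change of -0.074 ± 0.15 (SE).

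The lead windows were searched on both strands for letters bound by other promoter factors, each motif on its own, so that bases could count for more than 1. E2F proteins drive genes of DNA synthesis, and their letters TTTCCCGC, TTTCGCGC, TTTGCCGC or TTTGGCGC were in 4 of 30 lead windows, those of FANCA, FANCD2, RAD51C and XRCC2, or 13.3%, against 6.48% of the lead windows of all protein-coding genes. Over all member windows the E2F letters were in 10 of 76, or 13.2%, against 4.73% of tested promoter windows. The ETS letters CCGGAAGT were in 5 lead windows, those of BRCA2, FANCD2, MRE11, PALB2 and RAD50, or 16.7% against 8.49%. The NFY letters CCAAT were in 15, or 50.0% against 40.2%, and the SP and KLF letters GGGCGG in 20, or 66.7% against 77.9%. The cell cycle element CHR, TTTGAA or TTCGAA, was in 3, the CREB letters TGACGTCA in 2, the NRF1 letters GCGCATGCG in 1 and the YY1 letters ATGGCGGC in 0. With 30 windows a share moves by 3.33 percentage points for each window, and these counts are a description. The RAD52 lead window held none of these motifs.

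**Figure D5:**
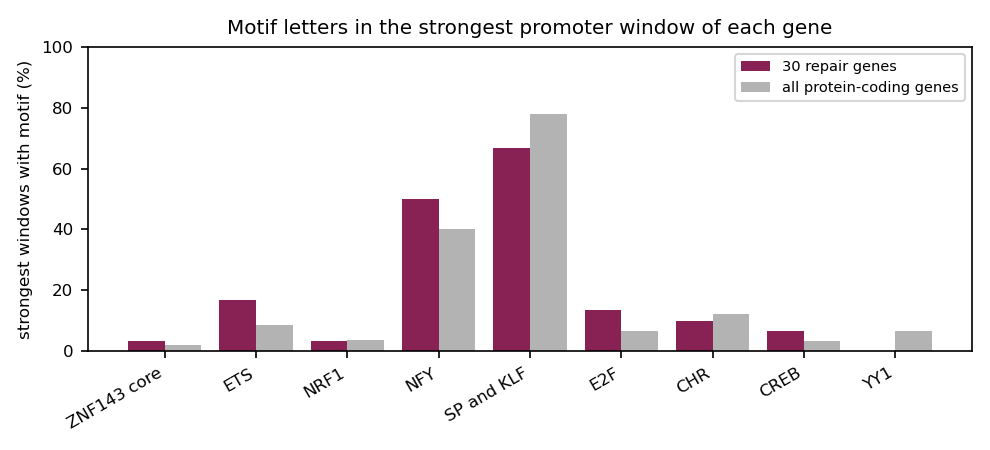
Share in percent (y axis) of the lead windows that hold the letters of each motif (x axis), for the 30 repair genes (dark) and for all 14689 protein-coding genes with a tested promoter window (grey). The share is higher in the repair genes for the ETS (16.7%), NFY (50.0%), E2F (13.3%), CREB (6.67%) and ZNF143 core (3.33%) letters and lower for the others. The ZNF143 core share is 1 window, that of FANCG, against 2.02% of all genes, and the CREB share is 2 windows against 3.15%.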

How the data were processed

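Per the file headers, the deposited table gives raw whole-number counts in windows of equal length for 16 libraries (replicates 9 to 16). Beside them each window has the authors' -log10 q of its peak, at least 2.0. The deposited summit list of replicates 1 to 8 gives -log10 scores and no value per library. Reads were handled with cutadapt 1.8.1, Bowtie2 2.4.4 and SAMtools 1.9 on hg38, per the submitters' processing notes; the peak caller, the counting tool, read filters and any shift for the Tn5 offset are not given in the sources used here. Starts and annotation came from GENCODE release 44 and sequences from hg38. The number of sample columns left unused was 0.

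All windows were fitted in edgeR 4.0.16 (R 4.3.3) with filterByExpr, TMM scaling and the quasi-likelihood test, dTAGV-1 against control without a covariate, and Benjamini-Hochberg adjustment over the 185040 tested windows. Log2 CPM used a prior count of 2. The fit weights libraries by their counts and the group means do not, so the 2 differed in sign in 10 member windows, all with a fitted log2 change of at most 0.037 in size. Standard errors came from the test statistic. The alternatives were DESeq2 1.42.0, limma 3.58.1 with cyclic loess or sample quality weights, other scaling and filtering, a replicate block and left-out libraries. Per-library values are given for every called member window, the 3 lower and 3 higher lead windows with the smallest p, the 3 strongest and 3 weakest, and BRCA1, BRCA2 and PALB2. Members, lists and the left-out libraries were chosen with earlier results of these data known. Python 3.11.15, scipy 1.17.1 and pysam 0.24.0 were used. Some items are not reported here. Scripts were tested on simulated data. Within groups, 56 pairs of libraries differed beyond sampling noise (chi-square per degree of freedom of 1.65 to 4.89), so all 16 were counted.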

Additional observations from a re-analysis of the deposited data

Results flagged for a closer look

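A value is listed here when the lowest or highest of the 8 libraries in a group was separated from the next one by a gap that took up most of the spread, past Dixon's critical value. Of 34 groups of 8 log2 CPM values at the windows described above, 16 held such a value, where chance gives about 1 in 20. Of the 16, 12 belonged to control replicate 12, the library with the fewest counts and the flattest signal, and 4 to the dTAGV-1 group (3 to its replicate 12, 1 to its replicate 11).

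Control replicate 12 was the lowest control library in all 12 cases. It measured 3.82 at the called RAD52 window, where the next control library was at 4.82. At the lead windows of the mediators it measured 2.95 for BRCA1 (next 4.22) and 3.08 for BRCA2 (next 4.38). It measured 2.88 for RAD51C (next 3.66), 3.14 for RAD51D (next 4.01) and 5.60 for XRCC3 (next 6.30). It measured 5.11 for BLM (next 5.98), 4.82 for ERCC4 (next 5.92) and 1.69 for SLX4 (next 3.69). At FANCC it measured 3.20 in the lead window (next 4.55) and 2.24 in the window with the core (next 3.69), and at SHLD3 it measured 3.26 (next 4.10).

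On the dTAGV-1 side, replicate 12 measured 3.80 for BRCA2 (next 4.22), 3.72 for the lead window of FANCC (next 4.58) and 2.99 for SLX4 (next 3.68). Replicate 11 measured 3.31 at SHLD3 (next 3.66).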

How the results depend on the processing

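The RAD52 call kept its direction and its side of the threshold in all 23 alternative fits, and 0 member windows were called higher in any of them. The count of called member windows stayed at 1 when single libraries were left out and rose to 2, with FANCG, under the replicate block and without replicates 11 and 12 of both groups. It was also 2 over gene bodies and their flanks, and it was 1 with a shorter distance to a start (52 windows), a longer one (92 windows) or starts from protein-coding transcripts alone (64 windows). Over all windows, the number called lower was 742 under the replicate block, 767 without replicates 11 and 12 and 318 to 627 when 1 library was left out, the highest without control replicate 12. The number called higher was 4 with DESeq2, 11 under the block, 5 with quality weights, 14 without replicates 11 and 12 and 0 to 5 when 1 library was left out.

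The replicate numbers were not taken to pair the libraries, since deviations from the group means of same-numbered libraries correlated at 0.028 to 0.336, with 3 of 8 pairs at or below 0.1. As a hint of shared variation, the median was 0.13 for the same number and 0.025 for other numbers, and 10 of 16 libraries correlated best with their own number. Under the replicate block FANCG was called, at -0.36 on the log2 scale with an edgeR adjusted p of 0.0205. The further recombination genes had 1 window called lower under the block, with cyclic loess and without replicates 11 and 12, and 0 to 1 when 1 library was left out. The damage signalling genes had 1, SHLD3, under the block and without replicates 11 and 12, and 0 to 1 when 1 library was left out. Allowing 1 mismatch raised the member windows with the ZNF143 core from 2 to 11 of 76. Of all tested promoter windows 19.0% held the core on the same terms, so that the members did not stand above promoters in general.

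Uncalled fold changes near 0 changed sign in some fits. BRCA2 was 0.0052 with cyclic loess and -0.12 to 0.0196 when 1 library was left out. ERCC4 was -0.0404 with quality weights, -0.0051 without replicates 11 and 12 and -0.10 to 0.055 when 1 library was left out. RAD51C was -0.0062, -0.0485 and -0.039 to 0.073 in the same order. XRCC3 was 0.0089 without replicates 11 and 12 and -0.10 to 0.065 when 1 library was left out. With 1 library left out BLM ran from -0.062 to 0.095, PALB2 from -0.091 to 0.018 and SLX4 from -0.037 to 0.12. The cause was not tested. FANCF had the lowest median counts of the lead windows, 64.5 in control and 59.5 in dTAGV-1, with 10 to 109 per library. Its SE of 0.18 was the largest of the 30. Among the lead windows the lowest count in a single library was 8, at SLX4 in control. Other member windows went lower, with 1 count in a control library at the RBBP8 window from 22913645.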
